A study of Rattus norvegicus with 6 samples.

Results

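Cultured rat oligodendrocyte precursor cells (OPCs) were compared with cultured rat astrocytes by RNA sequencing, with 2 libraries of each cell type, that is 4 of the 6 libraries of the series. The libraries were grouped by their labelled cell type, for a comparison chosen with earlier results of these data known. Each difference is given as OPC minus astrocyte. Both cell types were bought from one supplier as separate catalogue products. Each was kept for 8 days before 1 passage and for 6 days after it, so passage and days in culture were the same on both sides, while cell type and product cannot be told apart. The labels give no strain, age, sex, culture medium or treatment for either product. The other 2 libraries were of unpassaged rat neurons kept for 7 days. Here they entered only the choice of genes tested, the scaling between libraries and the shared estimate of spread. A tested gene can therefore have next to no counts in either compared cell type.

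OPCs are dividing glial cells that spread through the central nervous system, respond to mitogens from their neighbours, and can mature into the oligodendrocytes that wrap axons in myelin. Astrocytes take up transmitter and potassium around synapses, contact blood vessels, and build an intermediate filament network that grows when they react to injury. Both arise from neural progenitors, and different transcription factors mark the 2 lineages.

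Genes carried rat Ensembl identifiers. The deposited table does not pair them with gene names, and the gene name table used here matched 0 of its 26405 identifiers. Marker and pathway lists, promoter sequences and protein functions could therefore not be attached to the differences, and the labelled cell types were not checked against named markers. What follows describes how many genes differed, by how much, at which level, and how well the libraries of one cell type matched. At most 2 identifiers in each direction are printed, beside 1 that was not called.

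OPCs and astrocytes differed widely. Of 18206 genes tested, 4649 passed an adjusted p of 0.05 by edgeR's quasi-likelihood test (25.5%). Higher expression in OPCs was called for 1934 genes (10.6%) and lower expression for 2715 (14.9%). Which side held more genes turned with the scaling: 41.6% of the calls were higher in OPCs with TMM factors, and 58.6% (2968 higher, 2099 lower) with total counts alone. Between these scalings the median log2 fold change over the tested genes moved from -0.04 to 0.39. In bulk RNA a gene that is lower because fewer cells express it cannot be told apart from one with less RNA per cell.

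Most called differences were large, but with 2 libraries a side small differences seldom pass the threshold. The smallest called log2 fold changes were 0.92 and -0.92, so the medians below describe the called genes only. Among the higher genes the median fitted log2 fold change was 2.95, and among the lower genes it was -3.78. Differences between 2 and 4-fold were called in 478 higher and 504 lower genes, and differences under 2-fold were called in 7 and 9. Between 8 and 32-fold there were 553 higher and 842 lower genes. At the far end, 389 genes were more than 32-fold higher in OPCs and 893 more than 32-fold lower. The excess of very large differences on the astrocyte side was also seen with total counts alone, where the numbers were 457 and 739.

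Fitted folds of genes with no count on one side depend on the prior count of the model. Called genes with 0 counts in both libraries of the lower cell type numbered 32 on the OPC side and 83 on the astrocyte side. With the lower group of these genes set to a floor of 3 counts over the group, 376 genes were more than 32-fold higher in OPCs and 852 more than 32-fold lower. Called genes with 1 to 3 counts over the lower group, 100 higher and 282 lower in OPCs, kept their fitted folds. The median size on the log2 scale was then 2.94 for the higher genes and 3.73 for the lower ones.

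**Figure D1:**
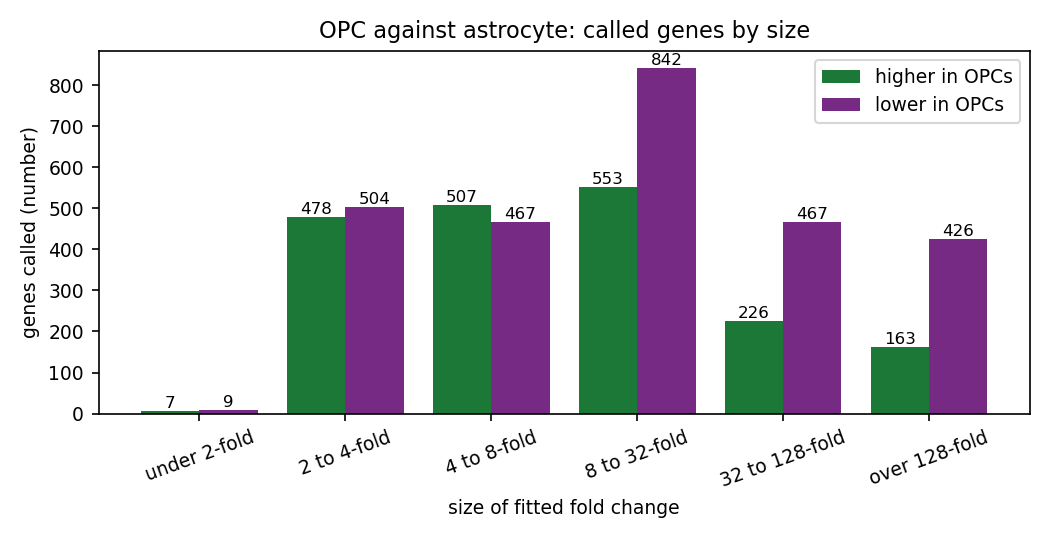
Number of called genes (vertical axis) by size of the fitted fold change (horizontal axis), for genes higher in OPCs (green) and lower in OPCs (purple). The directions are near each other below 8-fold, with 507 and 467 genes between 4 and 8-fold, and the lower genes are more numerous above 32-fold.

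The most abundant transcripts of each cell type were examined from its own side. Levels are in CPM, the count scaled to a library size adjusted by its TMM factor. Of 124 genes with a mean of at least 1000 CPM in astrocytes, 45 were called lower in OPCs (36.3%) and 0 higher. Of 70 genes with a mean of at least 1000 CPM in OPCs, 3 were called higher in OPCs (4.29%) and 0 lower. With levels and calls both from total counts alone, these were 36 of 100 and 5 of 86. A gene abundant in one cell type is more likely to be called in that direction, so the shares describe each set and were not tested against each other.

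Over levels that treat the cell types alike, the geometric mean CPM of the 4 libraries (with 0.5 CPM added), the share of genes called was highest at low to middle levels. It was 24.7% of 3002 genes under 1 CPM and rose to 37.9% of 5165 genes between 1 and 10 CPM. Above that it fell to 20.9% of 8264 between 10 and 100 CPM and 12.8% of 1697 between 100 and 1000 CPM. Over 1000 CPM 7 of 78 genes were called, all lower in OPCs, and with total counts alone these were 7 of 73. Between 10 and 100 CPM, 987 genes were lower and 739 higher, and total counts alone turned this order, to 662 lower and 1376 higher. CPM values are not corrected for transcript length, so these levels group genes only coarsely. A gene high in one cell type and low in the other falls to a lower level by a geometric mean. The levels are therefore not independent of the size of the difference.

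**Figure D2:**
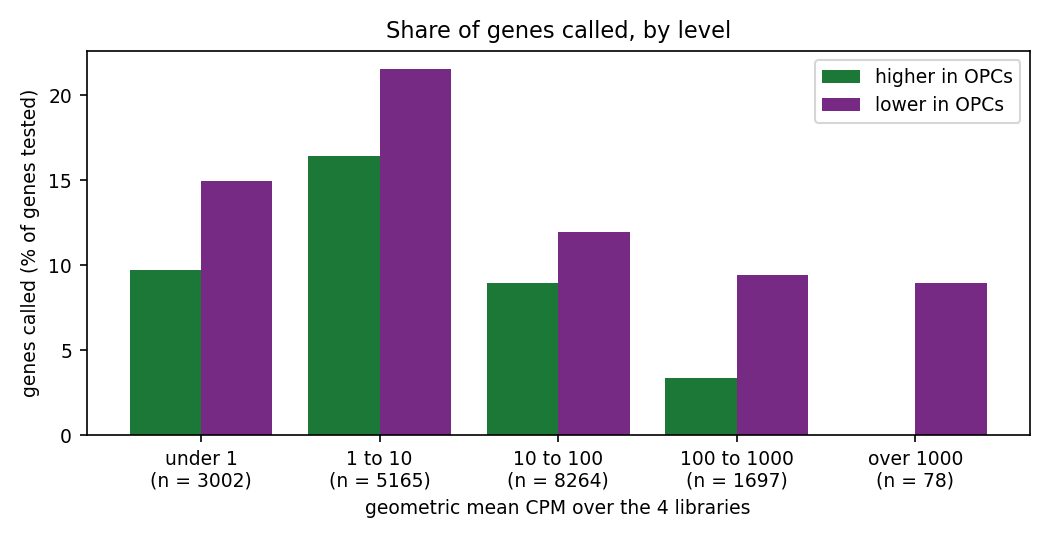
Share of tested genes called higher (green) or lower (purple) in OPCs, in percent, by geometric mean CPM over the 4 libraries; n is the number of genes tested. Both bars are tallest between 1 and 10 CPM, at 16.4% and 21.5%. With total counts alone the green bar would be the taller one between 1 and 1000 CPM.

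**Figure D3:**
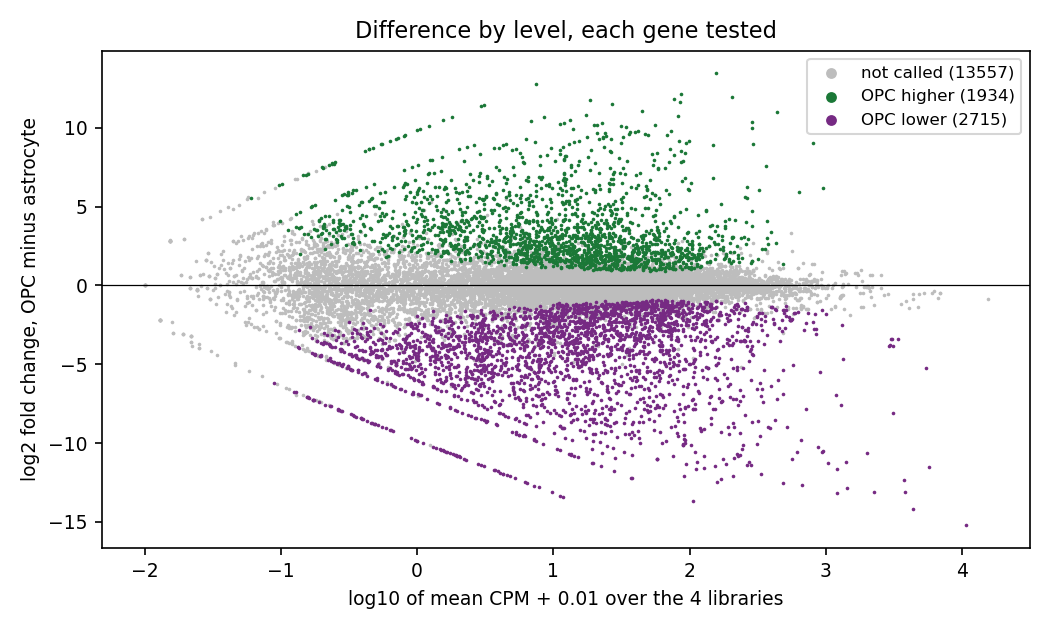
Log2 fold change (vertical axis, OPC minus astrocyte) of each tested gene against the log10 of its mean CPM over the 4 libraries plus 0.01. Called genes are green (1934, OPC higher) or purple (2715, OPC lower) and the 13557 others grey; points on straight diagonal lines have the same few counts, often 0, in one cell type.

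Genes called lower in OPCs took 33.2% and 26.7% of the read counts in the 2 astrocyte libraries, and 4.07% and 3.78% in the OPC libraries. Genes called higher took 12.4% and 10.3% in the OPC libraries and 1.32% and 1.51% in the astrocyte libraries. Since the genes were called in these same libraries, the shares give the size of the sets and no evidence of direction.

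The astrocyte-side counts were also more concentrated. Among the lower genes, 65 of 2715 carried 50% of the set's counts in astrocytes, whereas among the higher genes it took 171 of 1934 in OPCs. The 893 genes more than 32-fold lower took 17.4% and 12.5% of astrocyte counts and 0.116% and 0.113% of OPC counts. The 389 genes more than 32-fold higher took 3.06% and 2.30% of OPC counts and 0.0156% and 0.0203% of astrocyte counts. Over all genes, with no selection, 483 and 571 genes made up 50% of the counts in the astrocyte libraries, against 987 and 818 in the OPC libraries. Both astrocyte libraries were thus below both OPC libraries in this number.

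Few genes were wholly without counts on one side while clearly expressed on the other. In both OPC libraries 41 genes had 0 counts, with at least 1 CPM in each astrocyte library. In both astrocyte libraries 9 genes had 0 counts, with at least 1 CPM in each OPC library. Against the floor of 3 counts over the group, the astrocyte-side genes were at least 29.96-fold to 563-fold higher in astrocytes, and the OPC-side genes at least 51.3-fold to 617-fold higher in OPCs. These numbers moved with depth: with all libraries thinned to the same total they were 68 and 35.

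Total counts lay between 22265917 and 102861667 in the 4 libraries, and the shallowest was OPC replicate 1. There a floor of 3 counts corresponds to 0.115 CPM, against 0.0368 CPM in astrocyte replicate 1. A CPM of at least 1 was reached by 14341 to 15013 genes per library. Such floors cover counting error only.

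ENSRNOG00000011305, an identifier proposed as a marker for these cells with no name attached, stood at 597 and 445 CPM in the OPC libraries and at 8.50 and 5.34 CPM in the astrocyte libraries. Its log2 fold change was 6.23 ± 0.52 (SE, n = 2 libraries each; edgeR adjusted p = 0.000632). Both OPC libraries lay far above both astrocyte libraries, and the nearest pair differed 52.4-fold. By fold change it ranked 225 among the 1934 higher genes.

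ENSRNOG00000006030 had the largest CPM difference among the genes called higher, leaving the proposed markers aside. It stood at 2212 and 1568 CPM in OPCs and at 21.2 and 31.5 CPM in astrocytes. The log2 fold change was 6.17 ± 0.74 (SE, n = 2 each; edgeR adjusted p = 0.00172), and the nearest pair of libraries differed 49.8-fold. It was 1 of the 3 genes of at least 1000 CPM in OPCs that were called higher there.

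ENSRNOG00000002919, also proposed as a marker, was abundant in astrocytes and low in OPCs. It stood at 2669.6 and 2488 CPM in the astrocyte libraries and at 16.6 and 9.81 CPM in the OPC libraries, and it ranked 39 by level among the tested genes in astrocytes and 9092 in OPCs. The log2 fold change was -7.61 ± 1.58 (SE, n = 2 each; edgeR adjusted p = 0.0133), with no overlap and a nearest pair 149.7-fold apart. Its call was lost when astrocyte replicate 1 was omitted (adjusted p = 0.0503), when either OPC library was omitted (0.0857 for replicate 1 and 0.101 for replicate 2) and with no low-count filter (0.0933).

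ENSRNOG00000002548 had the highest mean level of all tested genes in astrocytes and the largest CPM difference in either direction. It took 2.55% of all counts in astrocyte replicate 1 and 0.883% in replicate 2, and had 2 and 45 counts in the OPC libraries. The log2 fold change was -15.21 ± 2.59 (SE, n = 2 each; edgeR adjusted p = 0.00628). Its replicates were far apart, 3.04-fold in astrocytes, with 32159 and 10569 CPM, and the OPC libraries stood at 0.0769 and 0.974 CPM. Even so, the lower astrocyte library was 10849-fold above the higher OPC library. Its call was lost without OPC replicate 1 (adjusted p = 0.0506) and with no low-count filter (0.0581).

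ENSRNOG00000017208, the remaining proposed marker, did not pass the test with all libraries. It stood at 692 and 1329 CPM in OPCs and at 102.6 and 100.9 CPM in astrocytes, so the groups did not overlap and the nearest pair differed 6.75-fold. The log2 fold change was 3.31 ± 1.25 (SE, n = 2 each), with an edgeR adjusted p of 0.09995. In the neuron libraries, which share the estimate of spread, it stood at 16.5 and 0.588 CPM, a 28.0-fold difference between replicates. The neuron replicates of the called genes ENSRNOG00000002919 and ENSRNOG00000002548 differed still more, by 30.5-fold and 46.1-fold. With only the 4 OPC and astrocyte libraries its edgeR adjusted p was 0.00182 at the same log2 fold change of 3.31, and DESeq2 gave an adjusted p of 0.00689.

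**Figure D4:**
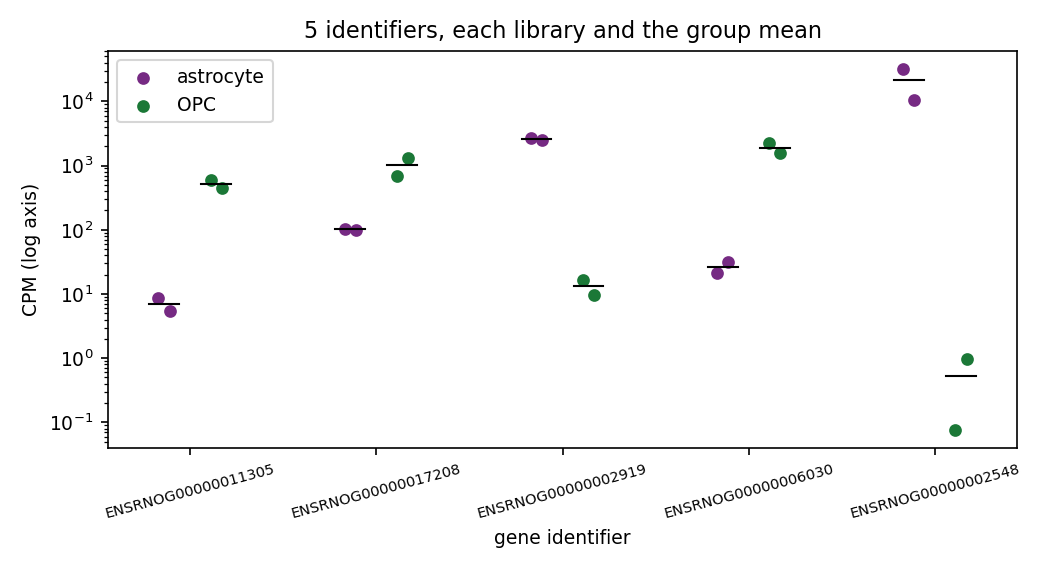
CPM on a log axis of 5 identifiers in each astrocyte (purple) and OPC (green) library; black lines are group means. No identifier has overlapping groups, and the nearest pair is closest in ENSRNOG00000017208, at 6.75-fold.

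Calls of other genes also changed when the neuron libraries were left out. The fit of only the 4 libraries called 5863 genes, of which 4631 were among the 4649 and 1232 were called only there. Of these 1232 genes, 516 were higher and 716 lower in OPCs, and 148 had a fitted difference of 8-fold or more. The neuron replicates differed more than 4-fold in 20.2% of the 1232 genes, compared with 6.50% of the genes called by both fits and 2.48% of those called by neither. The astrocyte replicates differed that much in 0.487% of the 1232 genes and the OPC replicates in 0.244%. The 1232 genes were selected as those called only when the neuron libraries were left out. A wide neuron gap and close astrocyte and OPC replicates follow in part from that selection. The ratios were computed on CPM plus 0.5, and the shares are descriptions with no test. Why these genes lost their call was not tested.

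In all 4649 called genes both libraries of one cell type lay above both of the other. This alone is common, since 11924 of 18206 genes tested did not overlap (65.5%), 5657 with both OPC libraries above (31.1%) and 6267 with both below (34.4%). In 4365 called genes the nearest pair of libraries was more than 2-fold apart, in 2084 more than 8-fold and in 934 more than 32-fold. Among the higher genes, the OPC replicates differed more than 2-fold in 187 of 1934 (9.67%), against 6.26% of all genes tested. Among the lower genes, the astrocyte replicates did so in 384 of 2715 (14.1%), against 8.45% of all genes tested. The shares in the cell type where a called gene was higher were thus above those over all genes. In the other cell type the astrocyte replicates did so in 11.4% of the higher genes, also above the share over all genes. The OPC replicates did so in 4.53% of the lower genes, below it. These replicate ratios were computed on CPM plus 0.5, which keeps them small in genes with few counts. Of the lower genes, 83 had 0 counts in both OPC libraries and 282 had 1 to 3 counts over the group. The sets compared also differ in level, so these shares are descriptions and do not show how well replicates agreed.

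Large differences could also miss the threshold. Of the genes not called, 295 had a fitted difference of 8-fold or more, and in 255 of these the groups did not overlap. At the wider limit of 4-fold or more, the share of genes called was lowest at low level. It was 55.6% under a geometric mean of 1 CPM and 90.2% between 1 and 10 CPM. Between 10 and 100 CPM it was 94.1%, and between 100 and 1000 CPM it was 88.3%. The median SE of the log2 fold change was 0.92 under 1 CPM and 0.37 between 10 and 100 CPM. It was 0.51 over 1000 CPM.

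A gene that was not called was seldom shown to be equal. The 95% interval of the log2 fold change, from its SE and the model's degrees of freedom, lay wholly within 2-fold either way for 1689 of 13550 uncalled genes with an interval (12.5%). Under 1 CPM there were 0 such genes among 2255, and between 10 and 100 CPM 1389 among 6538. At the other end, the interval lay wholly beyond 2-fold for 1348 called genes higher in OPCs and 2114 lower. The intervals are not adjusted for the number of genes.

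The side of a gene was then examined in libraries left out of the calling. Without OPC replicate 1, 2276 genes were called, and that library lay beyond both astrocyte libraries on the called side in 2276 of them. Without OPC replicate 2 this held for 2180 of 2182 genes, without astrocyte replicate 1 for 2637 of 2645 against the OPC libraries, and without astrocyte replicate 2 for 3104 of 3109. Among genes not called, the left-out library lay beyond both libraries of the other cell type on the fitted side in 65.1% to 68.4%. The libraries of the other cell type had themselves been used for the calls, and only the left-out library had not. It still entered the choice of genes tested and the scaling of the CPM values, so it was not fully independent.

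The sizes of the difference are given beside each other as a description, since both are taken from the same mean of the other cell type. In genes called without OPC replicate 1, the median difference from the astrocyte mean, on the log2 scale of CPM plus 0.5 and in the called direction, was 3.37 in OPC replicate 2 and 3.37 in the left-out library. The same pairs of medians were 3.47 and 3.32 without OPC replicate 2, 3.13 and 3.26 without astrocyte replicate 1, and 3.17 and 2.85 without astrocyte replicate 2. In the genes not called, the medians on the fitted side were 0.49 to 0.53 in the library kept and 0.41 to 0.48 in the one left out.

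The number of calls itself moved with single libraries. A lone neuron library gives no spread of its own in the model. Omitting either neuron library therefore left the spread to the OPC and astrocyte libraries, as in the fit of only those 4 libraries. Omitting an astrocyte library left 2645 (replicate 1) or 3109 (replicate 2) calls, and omitting an OPC library left 2276 (replicate 1) or 2182 (replicate 2). Omitting a neuron library raised the number to 5831 (replicate 1) or 5811 (replicate 2). Of the genes called without OPC replicate 2, 2161 were among the 4649. All genes called without OPC replicate 2, shared or not, were split almost evenly by direction. When all libraries were used, 41.6% of the called genes were higher in OPCs.

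**Figure D5:**
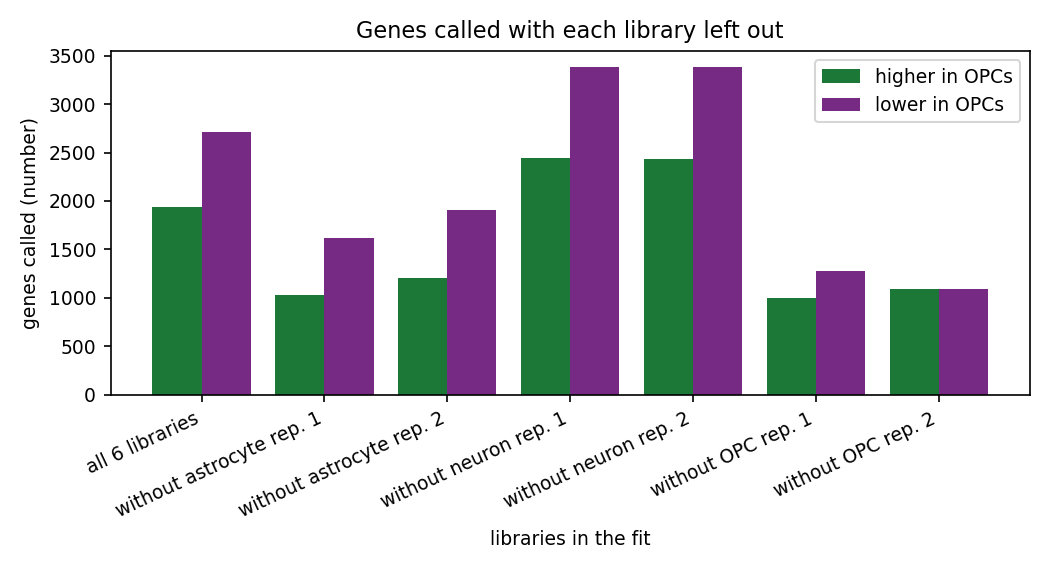
Number of genes called higher (green) or lower (purple) in OPCs with all 6 libraries and with each library left out in turn. Calls fall to 2182 to 3109 without an OPC or astrocyte library and rise to 5811 and 5831 without a neuron library.

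A smaller set of genes was called in the same direction under each of the 16 settings run, including every library left out. It held 658 genes higher in OPCs and 721 lower, together 1379, out of 13152 genes tested in all settings. Their median log2 fold change was 3.96 for the higher and -5.50 for the lower genes, and the smallest were 1.75 and -2.01. In all 1379 the nearest pair of libraries was more than 2-fold apart. The 721 lower genes took 15.2% and 12.3% of the counts in the astrocyte libraries, and the 658 higher genes 5.88% and 4.64% in the OPC libraries. Genes in this set need a mean of at least 5 CPM over all 6 libraries, neurons included, the strictest filter among the settings. By construction the set thus leaves out genes of low mean level over the whole series. Being called in every setting, also with a single library on a side, itself favours large differences. The sizes, gaps and shares therefore describe the set and are no further evidence for it.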

How the data were processed

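The values are the raw counts the authors deposited, 1 whole number per gene and library. Per the labels' protocols, total RNA from a column kit was sequenced on an Illumina HiSeq instrument. Aligner, counting tool, genome build, annotation and use of strand: not given in the sources used here. Reads of genes that overlap on opposite strands may therefore be mixed. The labels' description gave each column its sample, and 0 columns were left out. Whether replicates were separate cultures is not labelled, so the p-values cover only the spread between these libraries, which may be technical. Of the called genes, 14 had counts identical to another called gene in all libraries.

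Genes were kept by filterByExpr (minimum count 10, minimum total 15). All 6 libraries entered 1 robust quasi-likelihood model of cell type (edgeR 4.0.16, R 4.3.3, TMM factors), with 3 residual degrees of freedom. Calls used a Benjamini-Hochberg adjusted p under 0.05 over 18206 genes. A standard error is the fold change divided by the root of its F statistic. The 31 gene lists and the promoter motifs planned were not run, because 0 identifiers matched a symbol in the GRCr8 gene table. Printed identifiers are 3 proposed markers and, per direction, the called gene with the largest CPM difference, given no overlap and a group mean of 50 CPM or more. The comparison, lists and markers were chosen with earlier results of these data known. Both ways of grouping genes by level were set after seeing the data. DESeq2 1.42.0 and limma 3.58.1 (voom) served as alternatives.

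The steps were tested on simulated data for OPCs against astrocytes, with 200 genes changed before filtering and 17924 genes tested. Calls with the right sign were made for 34 of 66 genes at 8-fold, 9 of 65 at 4-fold and 0 of 67 at 2-fold. There was 1 false call. Far fewer genes differed there than were called in the data, which makes a Benjamini-Hochberg cut stricter. These numbers are therefore not detection rates for the data.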

Additional observations from a re-analysis of the deposited data

How the results depend on the processing

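Total calls stayed within 1.5 times the 4649 under each scaling, tool, filter, the fit of 4 libraries and the thinned libraries, which were added after seeing the data. They ranged there from 3170 at a mean of at least 5 CPM to 5955 by DESeq2. Total counts alone gave 2968 genes higher in OPCs, and the filter at 5 CPM, with fewer genes tested, gave 1796 lower. Omission of single libraries, the lone one left being taken to vary as the other pairs do, gave 2182 to 5831 calls, 996 to 2448 higher and 1089 to 3383 lower; the cause was not tested. With the replicate block there were 4831 calls, 4254 of them among the 4649. Library deviations of the same number correlated at 0.292 over genes between the cell types, but with 2 numbers and no label saying what they mark they were not treated as pairs. No called gene had the opposite sign in a setting that also called it (0 in each). Of 75 values of the printed identifiers under alternatives, 65 kept their side of the threshold, 6 lost the call, 4 gained it and 0 reversed; 2 of the 5 were picked for large differences in these libraries.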
